A study of Mus musculus with 6 samples.

Results

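The genes that encode the proteins of the cytosolic ribosome were followed across 6 poly-A RNA libraries from peritoneal macrophages of C57BL/6 mice. Members were the rows of the count table whose symbol starts with Rpl or Rps followed by a digit, together with Rpsa and Rplp0 to Rplp2, leaving out pseudogene symbols with "-ps" and the kinases that start with Rps6k. This gave 86 of 25509 gene rows, and 83 of them had enough counts to be tested. The libraries formed 2 groups of 3, wild-type mice (WT) and mice that overexpress angiotensin-converting enzyme, a peptidase that makes angiotensin II (Tg-ACE, labelled JWT in the genotype field). In both groups the cells were elicited with thioglycollate, an irritant of the peritoneum, taken on day 4, purified on Percoll and kept after 2 h of adherence. Replicate 1 of each genotype is labelled Exp-156, and the other libraries are labelled Exp-156b. The labels give no age and no sex, and the sources used here do not give the promoter or cell type that drives ACE. Nothing in the labels says that replicates came from separate mice, so p-values measure the spread between these libraries, which may be technical.

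A ribosome has a small subunit, which reads the messenger RNA, and a large subunit, which joins the amino acids. Each subunit is a core of ribosomal RNA covered by proteins, most of which are needed in equal numbers, so their genes are usually expressed together. Mammalian ribosomal protein messages typically begin with a run of pyrimidines, the terminal oligopyrimidine or TOP tract, through which the kinase mTOR and the RNA-binding protein Larp1 set how often they are translated. The messages are short and abundant, and their DNA copies have been inserted all over the genome as processed pseudogenes, which makes single genes of the family hard to count.

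The TOP tract is the sequence feature best known for this family, so the first bases of a few members are shown. RefSeq's promoter table for GRCm38.p6 held 66 of the 86 members. A tract was looked for on the transcribed strand only, as a C at the first base of the gene followed by at least 4 bases that are C or T. It was present in 14 of the 66 members (21.2%) and in 3.01% of all 27025 genes of the table. The windows run from 10 bases before the annotated first base to 20 bases from it, and the tract is in capitals. The order is Rps6, the small-subunit protein phosphorylated by S6 kinases (chr4:86857348-86857377, reverse strand), Rps10 (chr17:27635225-27635254, reverse), Rpl15 (chr14:18270967-18270996, reverse), Rpl35 (chr2:39005112-39005141, reverse), Rpl28 (chr7:4792955-4792984, forward), Rpl38 (chr11:114668570-114668599, forward), Rps27 (chr3:90213629-90213658, reverse) and its intronless copy Rps27rt (chr9:114982720-114982749, reverse).
Rps6: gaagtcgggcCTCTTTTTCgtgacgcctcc
Rps10: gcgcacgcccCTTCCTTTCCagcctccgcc
Rpl15: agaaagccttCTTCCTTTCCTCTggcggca
Rpl35: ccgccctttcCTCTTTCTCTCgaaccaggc
Rpl28: tctcgtgtctCTCTTTCCgtctccggccgc
Rpl38: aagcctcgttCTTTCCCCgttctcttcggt
Rps27: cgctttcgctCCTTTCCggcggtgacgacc
Rps27rt: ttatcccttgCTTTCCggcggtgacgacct
The tract was 9 bases long in Rps6, 13 in Rpl15 and 6 in Rps27rt. Rps27rt continues after its tract with the same letters as Rps27. The other matched members have no such run at the annotated first base, which says only that these letters are not at that position.

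Library totals lay between 24294258 and 28120394 counts. Levels are given as CPM, counts scaled to a common library total with TMM factors. Ace itself checked the labels: it stood at 16.7, 7.60 and 11.6 CPM in WT replicates 1 to 3 and at 100.6, 25.6 and 31.8 CPM in Tg-ACE, without overlap. The experiment code marked another division. Ddx3y on the Y chromosome stood at 48.0 and 51.6 CPM in the Exp-156 libraries and at 0.107 CPM or less in Exp-156b, and Xist ran the other way (0.409 and 0.527 CPM against 327.3 to 454.5 CPM), so code and sex cannot be told apart. Macrophage markers were high in all libraries, with 9 of 9 rows detected and a summed level of 18060 to 22010 CPM.

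Ribosomal protein rows took about 3% of all counts, and less of them in both Exp-156 libraries than in any Exp-156b library. Their share in WT was 3.13%, 3.44% and 3.41% in replicates 1 to 3, and in Tg-ACE 2.95%, 3.45% and 3.78%. Tg-ACE replicate 1 was lowest and Tg-ACE replicate 3 highest, so the genotypes overlapped and the codes did not. The exact 95% binomial interval of the share in Tg-ACE replicate 3 ran from 3.77% to 3.79%, which covers counting error only. The 2 subunits moved alike: large-subunit rows held 1.80%, 2.01% and 1.98% in WT and 1.72%, 2.03% and 2.22% in Tg-ACE, and small-subunit rows 1.32%, 1.42% and 1.41% in WT and 1.21%, 1.41% and 1.55% in Tg-ACE. In bulk RNA, fewer cells of a type and less RNA per cell cannot be told apart.

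**Figure D1:**
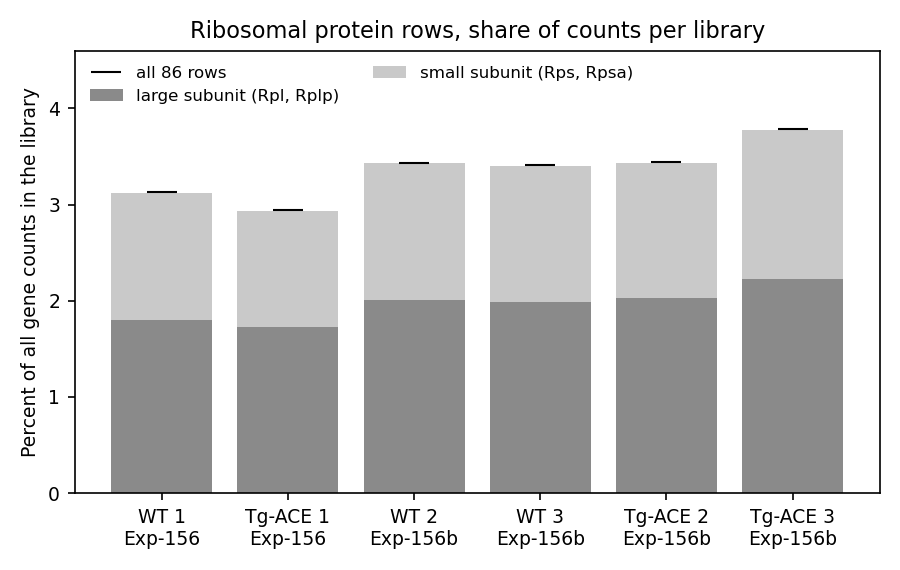
Percent of all gene counts held by ribosomal protein rows (vertical axis) in each of the 6 libraries, grouped by experiment code, with large-subunit rows in dark and small-subunit rows in light grey and a dash for all 86 rows. WT and Tg-ACE of Exp-156 sit at 3.13% and 2.95%, and all of Exp-156b lies between 3.41% and 3.78%.

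To compare members with each other, CPM was divided by the length in kilobases of the principal annotated transcript (RPKM). Members were unequal in level on this scale, with a median of 503 RPKM and a middle range of 348.5 to 677.3 RPKM. The highest was Rps29, a small zinc-binding protein of the small subunit, at 1385 ± 91.3 RPKM (SD over 6 libraries). Next came Rplp1, an acidic protein of the large-subunit stalk that recruits elongation factors, at 1326 ± 194.2 RPKM, and Rpl26 at 972.4 ± 165.8 RPKM. Rps29 and Rplp1 differ by less than the spread of Rplp1 between libraries.

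The lowest tested rows were Rpl27 at 15.3 ± 2.53 RPKM, Rps19bp1 at 22.8 ± 3.13 RPKM and Rpl7l1 at 28.8 ± 1.91 RPKM. Rps19bp1 encodes a protein that binds Rps19 and Rpl7l1 a nucleolar relative of Rpl7, so neither belongs to the core ribosome although the naming rule takes both. Rpl27 is a core protein, and its low row has a copy beside it: 62.4% of its 75-base windows, the read length of these libraries, occur also in Rpl27-ps3, a pseudogene row. That row held 193.3, 211.0 and 211.8 CPM in WT and 181.0, 220.7 and 233.8 CPM in Tg-ACE, against 8.06, 9.94 and 10.7 CPM and 6.86, 10.5 and 10.2 CPM on the Rpl27 row. The level of Rpl27 alone is therefore uncertain, and the sum of both rows was 214.9 ± 11.7 CPM in WT and 221.0 ± 29.4 CPM in Tg-ACE (SD, n = 3). Lengths also weigh on this order, because long annotated transcripts lower Rps15a (5130 bases, 68.6 RPKM) and Rps20 (3706 bases, 101.0 RPKM). Per kilobase of coding sequence these 2 stood at 902.0 and 1048 RPKM. The top of the order changed too: per coding length Rpl41 was first at 6781 RPKM and Rps29 next at 3216 RPKM, and over all exons Rplp1 (1326 RPKM) stood above Rps29 (779.7 RPKM).

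Tissue-restricted paralogs were at or near background. Rpl10l, the testis paralog of Rpl10, had 0 counts in all 6 libraries, which allows at most 0.105 to 0.123 CPM. Rpl39l, a paralog of Rpl39 known from testis, had 2, 7 and 16 counts in WT and 0, 4 and 10 in Tg-ACE. Rpl3l, the muscle paralog of Rpl3, had 6, 3 and 7 counts in WT and 3, 4 and 6 in Tg-ACE. None of the 3 passed the filter on low counts, and their counterparts Rpl10, Rpl39 and Rpl3 were abundant at 668.8, 405.0 and 508.8 RPKM. Paralogs that were expressed lay below their counterparts per principal transcript: Rpl22l1 at 50.7 against 346.1 RPKM for Rpl22, Rps27l at 105.6 against 704.6 for Rps27, Rpl36al at 231.8 against 307.5 for Rpl36a, and Rpl7l1 at 28.8 against 486.0 for Rpl7. For Rpl36al the order depended on the length used, since over all exons it stood at 90.1 RPKM and Rpl36a at 89.7 RPKM.

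Between genotypes the family changed little. Of the 83 tested members, 0 passed edgeR's quasi-likelihood test with genotype and code as terms, where 0.0156% of 12827 genes did. This test called 0 genes higher in Tg-ACE. Ace itself, with a log2 fold change of 1.95, did not pass it (edgeR adjusted p = 0.136). The same fit gave 2 members at an unadjusted p under 0.05, both higher in Tg-ACE, where 2.64% of all genes were higher and 3.84% lower at that level. Limma-voom also called 0 members, and DESeq2 called 1, Rpl29, where it called 0.296% of all genes. The median log2 fold change of members (Tg-ACE minus WT) was 0.04, against -0.01 over all tested genes, with 67 members above 0 and 16 below. Without Tg-ACE replicate 3 the median was -0.00, with 41 members above 0 and 42 below. For 80 of 83 members the estimate lay within 0.2 of 0, with a median standard error of 0.08. Other genes with a short transcript (under 1000 bases, 764 tested) had a genotype median of 0.07, and 77 mitochondrial ribosomal proteins one of 0.08.

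The members with the smallest p among those higher in Tg-ACE were Rpl29, Rpl13a, Rpl36, Rpl38 and Rpl41. Rpl13a, which is also part of a complex that silences inflammatory messages in macrophages, stood at 417.3, 442.1 and 456.4 CPM in WT and 407.9, 553.7 and 637.2 CPM in Tg-ACE. Its log2 fold change was 0.26 (SE 0.11, edgeR adjusted p = 0.761), and the groups overlapped. Rpl41, whose product is the smallest ribosomal protein, stood at 515.0, 395.1 and 467.6 CPM in WT and 445.2, 554.2 and 674.5 CPM in Tg-ACE, a log2 fold change of 0.27 (SE 0.16, edgeR adjusted p = 0.797). Rpl36 and Rpl38 had log2 fold changes of 0.16 and 0.15.

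Among members lower in Tg-ACE, the 5 with the smallest p were Rps4x, Rps24, Rpl27, Rpl22 and Rps23. All 5 estimates were small, between -0.03 for Rps23 and -0.07 for Rpl27. Rps4x, the X-linked form of a small-subunit protein, stood at 714.7, 776.6 and 736.6 CPM in WT and 664.9, 754.2 and 741.3 CPM in Tg-ACE. No member was lower in every Tg-ACE library than in every WT library (2.53% of all genes were), and 1 member, Rpl29, was higher in every one (2.38% of all genes).

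Rpl29, a large-subunit protein, was the member that set the genotypes apart. Its row stood at 175.6, 182.0 and 177.9 CPM in WT and at 240.9, 288.6 and 289.3 CPM in Tg-ACE. Every Tg-ACE library lay above every WT library, with the Exp-156 library the lowest of the 3. Tg-ACE exceeded WT by 0.61 on the log2 scale (SE 0.07), a difference that missed the threshold in edgeR (adjusted p = 0.134) and passed it in DESeq2 (adjusted p = 9.12e-11). In edgeR it passed without the filter on low counts (adjusted p = 0.0208), and with genotype as the only term its adjusted p was 0.9998. The exact permutation p, two-sided, was 0.1, and groups of 3 cannot give a smaller one. The difference was 0.46 within Exp-156 (1 library against 1) and 0.68 within Exp-156b.

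The Rpl29 row cannot be read alone, because other rows carry its sequence. Gm10709 (chr9:7751725-7752204, forward strand), a processed pseudogene, matches the 480 coding bases of Rpl29 (chr9:106429454-106431568, forward strand) at all but 4 positions, 99.2% identity. Counted from the first coding base, the differences are G205A, C300T, T423C and G457A, with the base of Rpl29 first. Coding bases 383 to 457 are shown, the length of 1 read, because 2 of the 4 fall there, given in capitals (GENCODE vM21, GRCm38, chr9:106431349-106431423 for Rpl29 and chr9:7752107-7752181 for Gm10709).
Rpl29: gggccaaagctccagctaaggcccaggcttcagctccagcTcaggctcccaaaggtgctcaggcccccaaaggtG
Gm10709: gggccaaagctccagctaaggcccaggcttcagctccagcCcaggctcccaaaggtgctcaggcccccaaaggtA
Of all 75-base windows of Rpl29, 43.2% occur also in an annotated transcript of Uimc1, 31.1% in Gm10709 and 17.9% in Gm17669, and 56.8% in at least 1 other row of the table. These shares count matches on either strand.

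Gm10709 moved against Rpl29. It stood at 33.5, 30.2 and 34.6 CPM in WT and at 2.004, 2.47 and 3.70 CPM in Tg-ACE, from 818, 852 and 871 counts and 57, 62 and 90 counts. Its log2 fold change was -3.60, and it passed (edgeR adjusted p = 0.00102). With genotype as the only term Gm10709 did not pass (edgeR adjusted p = 0.0708). Its exact permutation p, two-sided, was 0.1, the smallest that groups of 3 can give. Uimc1, a protein of the DNA damage response, stood at 53.6, 52.0 and 46.4 CPM in WT and 42.1, 37.6 and 38.2 CPM in Tg-ACE, a log2 fold change of -0.37 (edgeR adjusted p = 0.457).

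Gm10709 lost fewer CPM than Rpl29 gained. With Rpl29 and Gm10709 summed, the level was 211.3 ± 1.94 CPM in WT and 275.7 ± 28.4 CPM in Tg-ACE (SD, n = 3), still without overlap, and the log2 fold change was 0.38 (edgeR adjusted p = 0.484). With Uimc1 and Gm17669 added, a sum chosen after the data were seen, it was 0.26 (edgeR adjusted p = 0.759), at 262.3 ± 2.60 and 315.5 ± 26.2 CPM. Of 26 tested genes within 1 Mb of Rpl29, 8 had an unadjusted p under 0.05 for genotype, where 6.48% of all genes did, and 0 passed adjustment (edgeR). Of 11 such neighbours of Gm10709 there were 2. This window too was chosen after the values were seen, and the part of the neighbourhood in the Rpl29 difference was not tested.

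**Figure D2:**
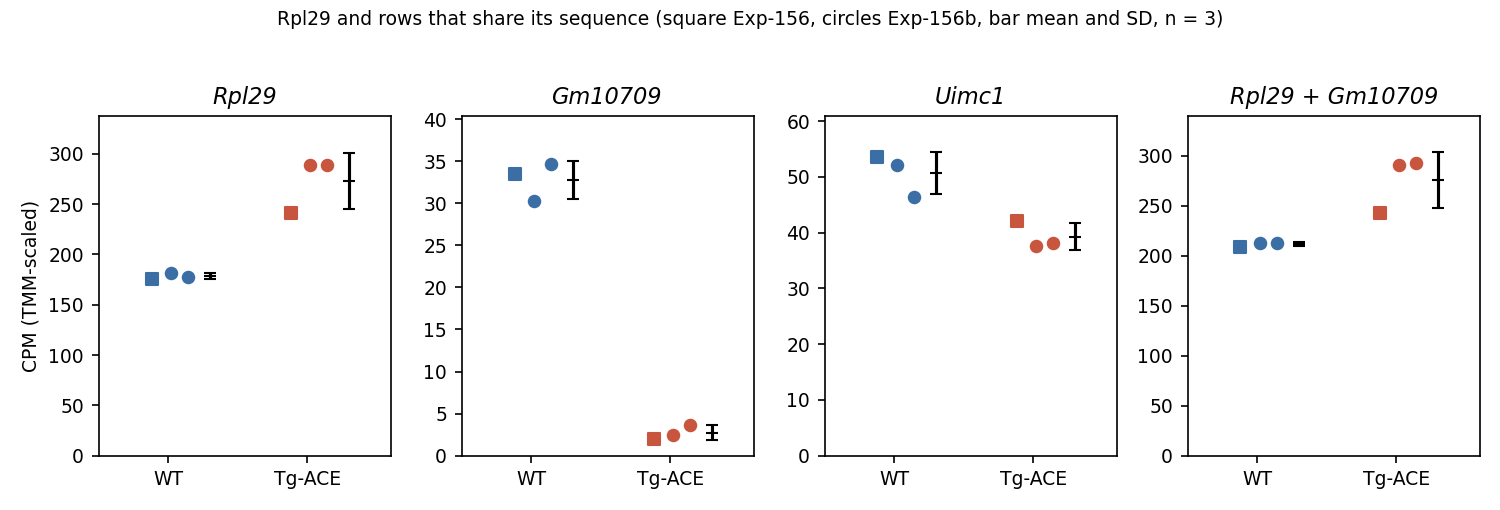
CPM (vertical axis, from 0, own scale per panel) of Rpl29, Gm10709, Uimc1 and the sum of Rpl29 and Gm10709 in WT (blue) and Tg-ACE (red), with squares for Exp-156, circles for Exp-156b and bars for mean and SD of 3. Rpl29 lies between 175.6 and 182.0 in WT and between 240.9 and 289.3 in Tg-ACE, and Gm10709 is at or below 3.70 in Tg-ACE.

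For most members the genotype difference had opposite signs in the 2 experiment codes, and Exp-156 held a single library per genotype. Within Exp-156 the Tg-ACE library was below the WT library for 75 of 83 members, with a median log2 CPM difference of -0.09. Within Exp-156b the mean of the Tg-ACE libraries was above that of WT for 79 of 83, with a median of 0.12. Together, 71 members (85.5%) were below 0 in the first and above 0 in the second, as were 26.7% of all tested genes. Another 8 were above 0 in both codes (21.6% of all genes), 4 were below 0 in both (24.5%) and 0 ran the opposite way (27.1%). The median of the difference between codes (interaction) was 0.23 for members and -0.00 for all genes.

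No single member passed the interaction test. The edgeR fit with 2 residual degrees of freedom called 0 members, as did DESeq2 and limma-voom, and all its 12827 genes gave 0 calls (0%). At an unadjusted p under 0.05 there were 9 members, all with the more positive genotype difference in Exp-156b, where 7.65% of all genes passed, 4.15% in this direction and 3.5% in the other. The estimate was highest for Rps27rt (1.03) and Rpl41 (0.72), and the smallest edgeR adjusted p of any member was 0.646. Rps27rt shares 90.3% of its windows with another row of the table, so its row cannot be read alone. No interaction was fitted for its sum with Rps27. The 764 other short genes had a median interaction of 0.21, with -0.07 in the first code and 0.13 in the second, and the 77 mitochondrial ribosomal proteins a median of 0.16. Short transcripts thus moved with the members, and the part of length in the pattern was not tested.

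**Figure D3:**
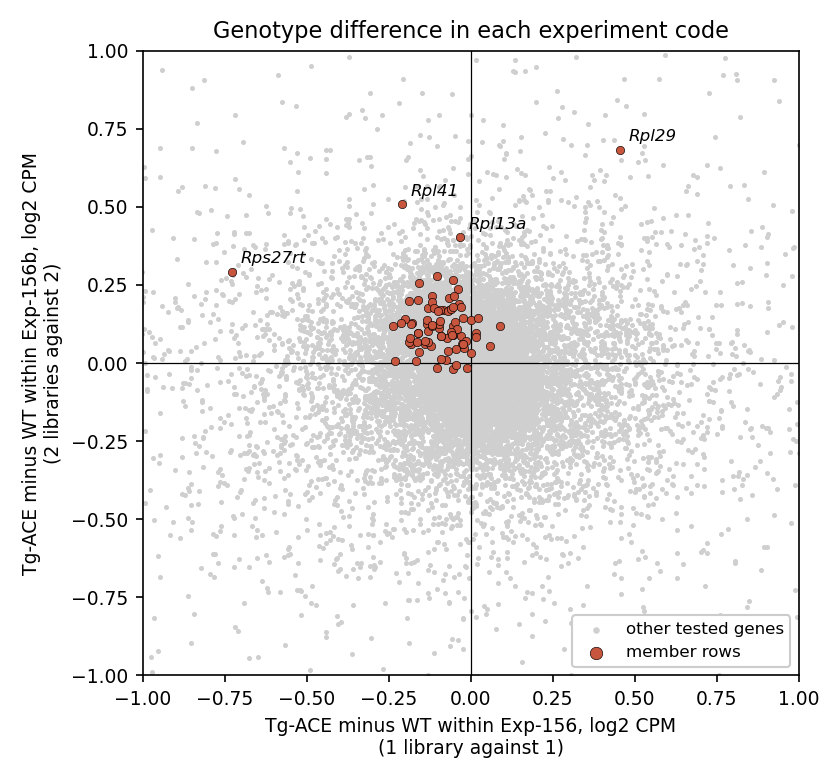
Log2 CPM difference Tg-ACE minus WT within Exp-156 (horizontal, 1 library against 1) and within Exp-156b (vertical, 2 against 2) for the 83 tested members (red) and the other tested genes (grey), with 409 tested genes and 0 members outside the plotted range. Of the members, 71 lie left of 0 and above 0, while Rpl29 lies at 0.46 and 0.68.

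Between experiment codes the family was higher in Exp-156b. In the edgeR fit 37 of 83 members passed, where 42.9% of all genes did, so the number of calls was near that of the table. Their direction was not: 36 were higher in Exp-156b (20% of all genes) and 1 was lower (22.9% of all genes). The filter on low counts took its groups by genotype, so genes counted in Exp-156 alone, such as Ddx3y, were not tested. Genes counted in Exp-156b alone, such as Xist, could pass it, and the shares of all genes carry this imbalance. The median log2 fold change (Exp-156b minus Exp-156) was 0.24 for members and -0.00 for all genes, with 79 members above 0 and 4 below. The 36 rises were modest, from 0.21 to 0.52, and in 66 members all Exp-156b libraries lay above both Exp-156 libraries (28.9% of all genes), with the reverse in 2 (30.9%). At an unadjusted p under 0.05, 53 members were higher and 1 lower, where 51.5% of all genes passed (24.6% higher, 26.9% lower). With upper-quartile factors 64 members passed, 63 of them higher, while 5740 genes passed in all and the median of all genes moved to 0.07. Without Tg-ACE replicate 1, the library with the lowest level for 70 of 83 members, 5 members passed (3409 genes in all) and the median was 0.11.

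The 8 members with the smallest p among the rises were Rpl30, Rps12, Rpl36a, Rpl31, Rps20, Rps23, Rpl26 and Rps19bp1. Rpl30 had 295.0 CPM (WT) and 279.6 CPM (Tg-ACE) in Exp-156, against 391.3, 384.1, 388.7 and 391.1 CPM in Exp-156b. The 2 codes were far apart and the genotypes alike, with a log2 fold change of 0.44 (SE 0.07, edgeR adjusted p = 0.00168). Rps12 had the largest rise, 0.52 (SE 0.08, edgeR adjusted p = 0.00206), from 373.6 and 344.3 CPM to 493.3, 492.7, 516.9 and 554.5 CPM.

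Rps20 rose by 0.41 and Rps23, which lies at the decoding centre, by 0.43. On the large subunit Rpl31, at the mouth of the exit tunnel, rose by 0.46, Rpl26 by 0.45 and Rpl36a by 0.42. Rps19bp1 rose by 0.38, from 15.5 and 16.5 CPM to between 19.4 and 22.0 CPM. Rpl30, Rpl31, Rpl36a, Rps12 and Rps20 were the 5 that passed without Tg-ACE replicate 1, and Rps23, Rpl26 and Rps19bp1 did not (edgeR adjusted p = 0.056, 0.0647 and 0.0547).

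**Figure D4:**
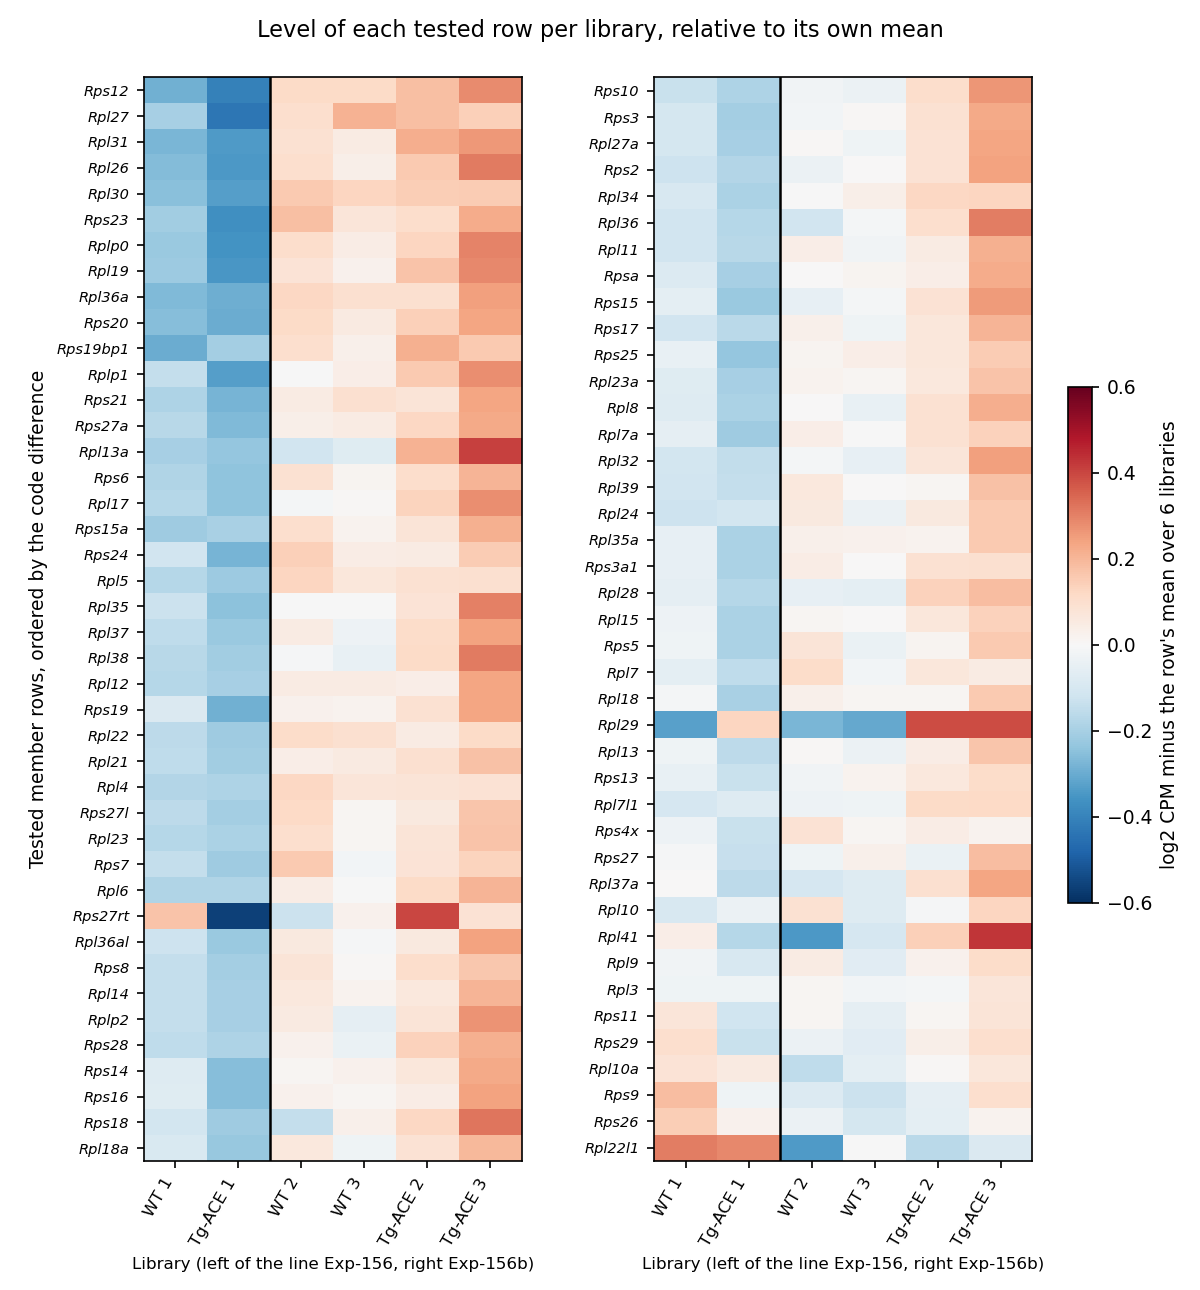
Log2 CPM of each of the 83 tested rows minus its own mean over 6 libraries (colour, blue below and red above), with rows ordered by the code difference and columns by code and genotype. Tg-ACE replicate 1 holds the lowest level for 70 rows and Tg-ACE replicate 3 the highest for 69, and the Rpl29 row divides by genotype.

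Members with special roles are given next, outside the naming rule and after their values were seen. The stalk proteins of the large subunit had log2 fold changes of 0.43 for Rplp0 (edgeR adjusted p = 0.00804), 0.35 for Rplp1 (0.0262) and 0.26 for Rplp2 (0.0545, not called). Rpl5 and Rpl11 bind the 5S ribosomal RNA and, outside the ribosome, the p53 ligase Mdm2. Rpl5 rose by 0.29 (edgeR adjusted p = 0.0108), while the estimate for Rpl11 was 0.21 (edgeR adjusted p = 0.0686). Rps6 rose by 0.32 and Rps27a, which is made as a fusion with ubiquitin, by 0.32.

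The member that fell was Rpl22l1. Both Exp-156 libraries, with 34.2 CPM (WT) and 33.7 CPM (Tg-ACE), lay above the 21.8, 27.5, 24.7 and 26.0 CPM of Exp-156b. Its log2 fold change was -0.44 (SE 0.10, edgeR adjusted p = 0.0095). Rpl22, the paralog that occupies the same place in the ribosome, rose by 0.28 (edgeR adjusted p = 0.01), from 146.6 and 141.1 CPM to between 169.1 and 176.7 CPM. The Rpl22l1 call was lost when either Exp-156 library was left out (edgeR adjusted p up to 0.0809), and the Rpl22 call when Tg-ACE replicate 1 was (0.0654).

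In the other expressed pairs both members had estimates above 0. Rpl36a rose by 0.42 and Rpl36al by 0.26 (edgeR adjusted p = 0.0393), and Rps27l rose by 0.27 (edgeR adjusted p = 0.02) where the estimate for Rps27 was 0.11 (edgeR adjusted p = 0.338). Rpl7 and Rpl7l1 had 0.16 and 0.13, neither called. Rps26, Rps9 and Rpl10a were the other members below 0, at -0.13, -0.12 and -0.10, and none was called. Rps9 had 760.1 CPM (WT) and 656.4 CPM (Tg-ACE) in Exp-156, against 631.7, 610.4, 643.8 and 715.7 CPM in Exp-156b, so its codes overlapped. Rpl3 varied least of all members, with an SD of 0.04 log2 CPM over the 6 libraries, where the median member had 0.15.

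**Figure D5:**
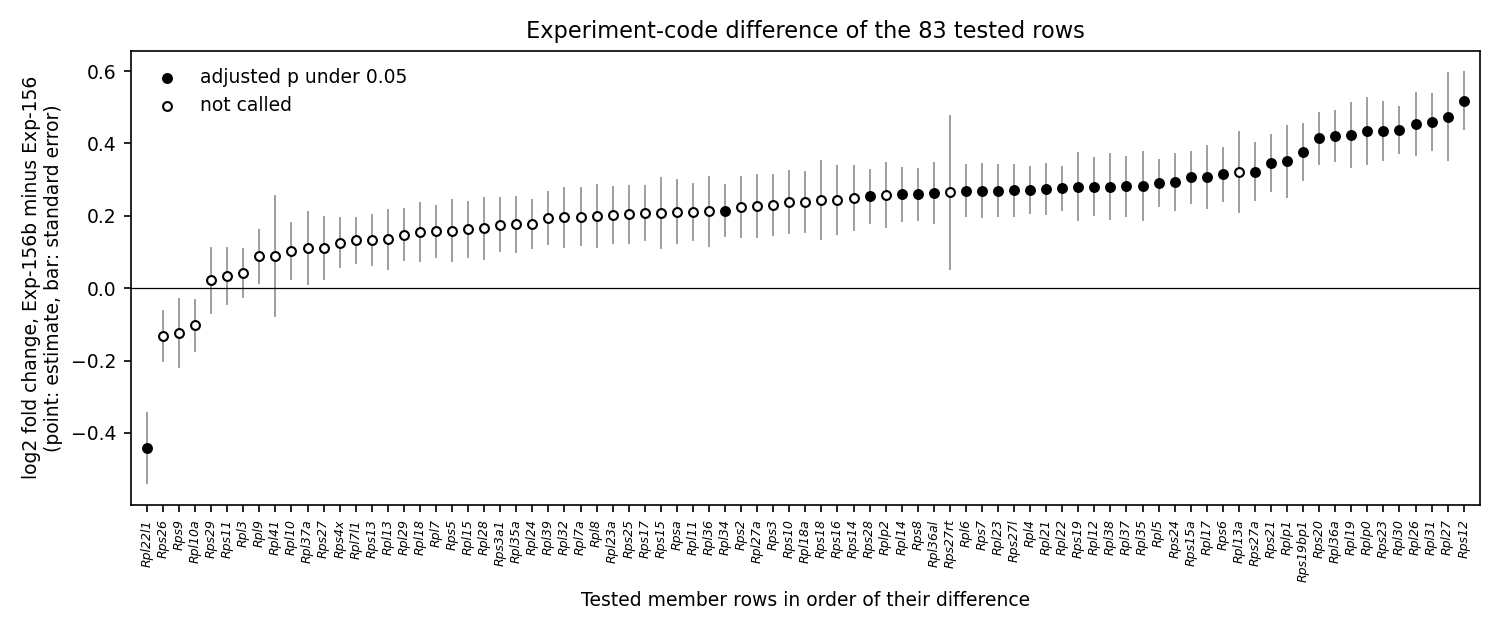
Log2 fold change Exp-156b minus Exp-156 (vertical; bars, standard error) of the 83 tested members in rank order, filled where the edgeR adjusted p is under 0.05. The order runs from Rpl22l1 at -0.44 to Rps12 at 0.52, with 36 filled points above 0 and 1 below.

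Since sex follows the code, the 4 members on chromosome X were read separately. Their code differences were 0.10 for Rpl10, 0.42 for Rpl36a, 0.19 for Rpl39 and 0.13 for Rps4x, and 1 of 4 passed, Rpl36a. The 79 members on other chromosomes had a median of 0.24, with 35 higher and 1 lower. The other 399 tested genes on chromosome X had a median of -0.04, with 67 higher and 93 lower.

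Markers of other cells moved with the code as well. The summed level of 9 neutrophil rows was 475.0 and 148.5 CPM in Exp-156 and 11.3 to 15.6 CPM in Exp-156b. Most of it was Retnlg (438.4 and 128.5 CPM against 1.23 CPM or less). S100a9 had 21.1 and 9.67 CPM against 1.39 CPM or less, S100a8 overlapped (13.1 and 8.44 CPM against 8.92 to 10.2 CPM), and Ly6g, which marks mature neutrophils, was at 0.0409 and 0 CPM in Exp-156. Eosinophil rows (5) summed to 240.3 and 98.1 CPM against 10.3 to 21.2 CPM, and mast cell rows (6) to 94.4 and 61.2 CPM against 14.0 to 28.4 CPM. Rows of T and NK cells (9) summed to 18.9 and 15.9 CPM against 3.62 to 7.63 CPM, and those of erythroid cells and platelets (9) to 70.2 and 100.4 CPM against 16.6 to 36.3 CPM. B cell rows (7) overlapped between codes (99.4 and 124.9 CPM against 58.4 to 132.3), and rows of mesothelial cells and fibroblasts (8) were lower in Exp-156 (142.5 and 152.4 CPM against 167.5 to 329.5). The part of these cells in the code difference was not tested.

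Genes that make or run ribosomes were examined beside the members, and their counts stand against 20% of all genes higher and 22.9% lower in Exp-156b. Of 47 tested ribosome biogenesis factors, 26 were higher in Exp-156b and 0 lower, with a median of 0.34. Gnl3, a nucleolar GTPase, rose by 1.05, Rrp12, which exports pre-ribosomes, by 1.06, and Nmd3, the export adaptor of the large subunit, by 0.91. Of 77 mitochondrial ribosomal proteins, 28 were higher and 1 lower (median 0.18). Of 28 initiation factors, 13 were higher and 2 lower (median 0.17): Eif2s2 and Eif2s3x, subunits of the factor that carries the initiator tRNA, rose by 0.65 and 0.60, and Eif1 fell by 0.60 on the log2 scale.

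Elongation factors and other genes listed by name as TOP genes gave 6 higher and 1 lower of 18 (median 0.15). The tract search above was not used to choose them. Npm1, a nucleolar chaperone, rose by 0.31 and Eef1g by 0.33, and Vim, which encodes vimentin, fell by 0.74. Of 15 genes of the RNA polymerase I machinery, 1 was higher, Taf1d (0.45), and 2 were lower, Ubtf (-0.38) and Ttf1 (-0.45), with a median of 0.08. Of 28 regulators of ribosomal protein synthesis, 4 were higher and 7 lower (median -0.01). Eef2k, the kinase that halts elongation, fell by 2.503, Myc by 1.03 and Rps6ka1 by 0.98. The other short genes had 150 higher and 122 lower, with a median of 0.05. Among members, the 14 with a TOP tract at the annotated first base gave 6 higher and 0 lower (median 0.26), and the 49 listed without one gave 23 higher and 1 lower (median 0.23).

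In the genotype test none of these lists had a called gene (edgeR). For the biogenesis, initiation, elongation, RNA polymerase I and regulator lists the medians lay between -0.02 for the regulators and 0.03 for the initiation factors. The smallest p in each of these belonged to Hnrnpa1 (-0.22), Eif4a2 (-0.21), Wdr12 (0.23), Cd3eap (0.28) and Rictor (-0.28), with edgeR adjusted p between 0.761 and 0.767.

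Sequence shared with other annotated genes limits how finely the family can be read. Any other gene was counted, so copies and genes with overlapping transcripts were not separated. Rows such as Flt3l, Tlcd1 and Wdr38, not named as ribosomal protein copies, were among those that shared windows. Of 86 members, 81 shared at least 1 window of 75 bases exactly with another annotated gene and 5 shared none. Against the rows of the count table, where reads could be divided, 35 members shared some windows and 13 shared over 50%. These were Rps27 (98.5%), Rpl10 (91.9%), Rps27rt (90.3%), Rps12 (89.5%), Rpl35 (89.2%), Rpl9 (81.8%), Rpl23a (65.6%), Rpl27 (62.4%), Rpl15 (57.3%), Rpl29 (56.8%), Rpl13a (56.3%), Rps2 (52.6%) and Rps18 (52.1%). Their code calls were 3 higher of 13 and 0 lower, near the 20% of all genes called higher, and without them 34 members passed.

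Rps27rt shows how far this goes. It is a copy of Rps27 without introns, and the 252 coding bases of both are identical, whereas Rps27l, a paralog with introns, differs from Rps27 at 60 of 252. The first 75 coding bases are shown for the latter pair, with the 22 differing bases in capitals, to set a pair that can be told apart beside one that cannot. Rps27 lies on the reverse strand at chr3:90213610-90213615 and chr3:90213233-90213301, Rps27l on the forward strand at chr9:66946175-66946180 and chr9:66946831-66946899.
Rps27: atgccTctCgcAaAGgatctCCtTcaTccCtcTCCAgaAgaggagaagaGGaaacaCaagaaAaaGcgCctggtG
Rps27l: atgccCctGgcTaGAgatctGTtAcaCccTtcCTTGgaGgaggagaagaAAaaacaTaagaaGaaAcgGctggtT
Rps27rt stood at 40.5, 32.9 and 36.6 CPM in WT and at 24.4, 47.5 and 38.2 CPM in Tg-ACE, the widest spread of all members after Rpl29 (SD 0.32 log2 CPM). The sum with Rps27, which supplied most of it, was 279.1 ± 6.63 CPM in WT and 280.5 ± 34.5 CPM in Tg-ACE (SD, n = 3), with a genotype log2 fold change of 0.00 and a code change of 0.13 (edgeR adjusted p = 0.28).

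Each sum of copies that was run kept its code result on the same side of the threshold. No such sum was run for Rpl9, Rpl23a, Rpl15, Rpl13a, Rps2 and Rps18. Rps12 with Rps12-ps3 had a code difference of 0.47 (edgeR adjusted p = 0.00428), Rpl35 with Gm2000 0.34 (0.0269), and Rpl27 with Rpl27-ps3 0.24 (0.0338). Rpl10, beside which the row Rpl10-ps3 held 619.5 to 655.6 CPM in WT, more than the 499.0 to 568.0 CPM of Rpl10 itself, had 0.06 when summed (0.562) and 0.10 alone (0.333).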

How the data were processed

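Poly-A RNA of 6 libraries was sequenced as 75-base single-end reads after a stranded library preparation, per the labels' protocols. The authors deposited expected counts per gene as RSEM estimates them, and STAR 2.5.0 and RSEM 1.2.25 stand in the submitters' processing notes. The sources used here do not say whether counting used strand. The series' design text names the transgenic line Tg-NKO where the title and labels say Tg-ACE, and the labels were followed.

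Expected counts were rounded to whole numbers and tested with edgeR 4.0.16 (R 4.3.3; quasi-likelihood, TMM factors, filterByExpr, genotype and experiment code as terms). Benjamini-Hochberg adjustment ran over 12827 genes at 0.05. DESeq2 1.42.0 and limma 3.58.1 (voom) served as alternatives, as did genotype alone, other scalings and filters, and leaving out each library. The standard error is the fold change divided by the root of F. Log2 CPM used a prior count of 2, and the limit for 0 counts was 3 counts. Rows of ERCC spikes (92, with 1 count in all) were left out. No library pair was identical. Same-numbered libraries deviated together (correlations 0.856, 0.483 and 0.637 across all genes), which follows the code.

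Window sharing used GENCODE vM21 transcripts, which held 25251 of the gene IDs, and promoters came from RefSeq. All window shares count matches on either strand, and matches on the same strand were not counted apart. Named genes were Rpl29 and Gm10709, members that passed (at most 8 per direction, by p), the 5 smallest p per genotype direction, the 3 highest and 3 lowest per length, paralogs with counterparts, non-ribosomal members, X-linked members and those sharing over 50% of windows. The members and all lists were chosen with earlier results of these data known. The test code was tested on simulated data.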

Additional observations from a re-analysis of the deposited data

Results flagged for a closer look

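In 5 of 83 members 1 library of Exp-156b stood apart from the other 3, and each time it was Tg-ACE replicate 3, the highest. Chance flags about 1 group in 20 where groups are independent. Members moved together here, with Tg-ACE replicate 3 the highest of all libraries for 69 of 83, so this rate is no yardstick for the 5. Rpsa, the laminin-binding protein of the small subunit, had 882.4 CPM there and 757.3 to 775.9 CPM in the others. Rpl12, at the base of the stalk, had 563.2 CPM against 491.4 to 495.6 CPM, and Rps16 had 432.3 CPM against 368.6 to 377.7 CPM. Rpl35a stood at 316.0 CPM against 288.1 to 289.6 CPM, and Rpl18 at 285.3 CPM against 257.8 to 261.9 CPM.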

How the results depend on the processing

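The genotype count stayed at 0 members in all settings except without the filter on low counts and in DESeq2, with 1 each (Rpl29: 0.61 in both). The Rpl29 difference ran from 0.58 to 0.68 with each library left out, and the family's genotype median from -0.00 to 0.12. Within Exp-156 alone that median was -0.0917. The replicate number as a block gave 0 members, a median of 0.04 and an Rpl29 difference of 0.61 (edgeR adjusted p = 0.274), and it changed no call. For the code, upper-quartile factors gave 64 members, and leaving out each library gave 5 (without Tg-ACE replicate 1) to 41 (without WT replicate 1), with medians from 0.11 to 0.34. In these last 2 fits Exp-156 holds a lone library, assumed to vary like the others. The interaction gave 0 members under every scaling, filter and tool run. The median level per length was 209 RPKM over all exons and 838 RPKM over coding bases. The coding length, the 4-row Rpl29 sum and the code count without sharing members were alternatives chosen after seeing the data. Counting error is small at these levels, and shared sequence and the single Exp-156 library per genotype limit what can be read.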
